A study of Homo sapiens with 6 samples.

Results

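In HT-1080 cells, a long-established line from a human fibrosarcoma, 35 genes of glycolysis and of the response to low oxygen were examined after interferon gamma (IFNg). The genes were chosen by symbol from a deposited table of 17187 genes, and all 35 were in it. Earlier results of these data were known when they were chosen. Cells of 3 libraries had received recombinant IFNg at 10 ng/ml for 8 h, and cells of 3 control (Ctrl) libraries had received PBS. All 6 libraries came from cells labelled wild type and grown in the same medium. The oxygen level of the cultures is not given in the labels, and no hypoxic group was among the samples. Ribosomal RNA was depleted from total RNA before stranded paired-end libraries were made, so the measure is steady-state RNA and not protein, enzyme activity or flux. Separate cultures within a group are not stated in the labels, so p-values cover only the variation seen between these libraries, part or all of which may be technical.

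Glycolysis splits glucose into pyruvate in the cytosol, and lactate dehydrogenase can then reduce pyruvate to lactate. When oxygen is low, the transcription factor subunit HIF1A escapes the prolyl hydroxylases EGLN1 and EGLN3 that otherwise mark it for breakdown. It then pairs with ARNT on DNA that carries the core letters ACGTG or GCGTG. Many glycolytic genes, and genes such as VEGFA, CA9 and BNIP3, are textbook targets of this factor. HIF1A is controlled largely through the stability of its protein, which RNA levels do not show.

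Promoter windows of 3 of the 4 called genes that had one, and of LDHA, a classical HIF target that did not pass the test, are shown so that the hypoxia core letters can be seen. Each window runs from 250 bases before to 50 after a RefSeq start (build GRCh38.p14) and reads 5′ to 3′ along the gene. Capitals mark ACGTG or GCGTG on either strand, so that CACGT and CACGC are the same letters read on the opposite strand, and CACGTG holds ACGTG on both.
BNIP3, chr10:131981874-131982173, minus strand: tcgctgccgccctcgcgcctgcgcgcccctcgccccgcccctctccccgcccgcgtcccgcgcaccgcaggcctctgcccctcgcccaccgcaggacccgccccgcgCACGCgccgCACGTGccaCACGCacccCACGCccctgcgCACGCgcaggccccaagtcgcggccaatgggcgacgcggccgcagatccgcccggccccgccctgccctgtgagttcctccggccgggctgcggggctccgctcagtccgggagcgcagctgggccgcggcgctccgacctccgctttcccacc
PFKFB4, chr3:48556754-48557053, minus strand: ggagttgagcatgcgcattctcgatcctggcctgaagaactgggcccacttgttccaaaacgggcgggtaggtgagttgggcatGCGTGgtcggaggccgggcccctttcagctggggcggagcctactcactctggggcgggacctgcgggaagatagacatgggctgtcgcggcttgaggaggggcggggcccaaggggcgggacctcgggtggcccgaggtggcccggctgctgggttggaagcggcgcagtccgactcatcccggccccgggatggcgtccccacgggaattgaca
PDK1, chr2:172555840-172556139, plus strand: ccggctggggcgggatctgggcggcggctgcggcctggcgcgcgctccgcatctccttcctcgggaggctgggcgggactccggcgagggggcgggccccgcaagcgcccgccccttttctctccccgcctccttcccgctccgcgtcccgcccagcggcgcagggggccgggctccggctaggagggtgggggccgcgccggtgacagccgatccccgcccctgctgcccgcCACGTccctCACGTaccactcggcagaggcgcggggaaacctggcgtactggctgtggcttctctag
LDHA, chr11:18394313-18394612, plus strand: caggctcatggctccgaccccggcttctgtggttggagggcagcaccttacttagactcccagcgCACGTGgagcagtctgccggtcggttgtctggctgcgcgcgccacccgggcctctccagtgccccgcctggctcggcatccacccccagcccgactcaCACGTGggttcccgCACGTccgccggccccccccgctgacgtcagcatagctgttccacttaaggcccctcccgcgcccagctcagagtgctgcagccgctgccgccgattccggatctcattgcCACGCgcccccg

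The BNIP3 window held 6 matches, the PFKFB4 window 1, the PDK1 window 2 and the LDHA window 6, counting each strand. PDK1 has another listed start whose window (chr2:172555123-172555422) held 0 matches, and LDHA another whose window held 1. Of the 35 genes, 30 had at least 1 window, and SLC2A3, SLC16A1, BNIP3L, VEGFA and NDRG1 had none in the table used. The core was found in 38 of the 57 windows of these genes (66.7%), against 48.4% of all 35116 RefSeq windows of the same length. For the 4 called genes with a window it was found in 5 of 11. HK1, the called gene whose windows are not printed, held it in 2 of its 7 windows, with 1 match in each. ACGTG alone was in 40.4% of the 57 windows and in 21.4% of all windows. The letters TTCNNNGAA (GAS, N being any base) were also searched for. They were in 3.51% of the 57 windows, 1 of PDK1 and 1 of HK1, and in 7.66% of all windows. At least 1 window of 28 of the 30 genes held the core, PGAM1 and EGLN3 being the exceptions. This count per gene has no share over all genes beside it, since the 48.4% is per window. Genes with many windows, such as HK1 and PFKM with 7 each, have more chances to hold the core. Windows of the same gene can overlap, as for HK1 and PFKM, and all RefSeq windows were not matched to these in base composition. Many of the genes were listed as known HIF targets, so a higher share of the core is partly built into the list. A match describes the letters and not binding.

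The libraries held 59556948 (IFNg 3) to 83501954 (Ctrl 2) reads assigned to genes. Values are normalised read counts, that is, reads divided by 1 size factor per library with no correction for length, so genes are compared with each other only where a length is given. In 32 of the genes both group means were above 1000 normalised reads. The IFNg-induced transcription factor gene IRF1 and the peptide transporter gene TAP1 had log2 differences of 5.62 and 4.54 (limma adjusted p up to 3.7e-08), so the labels matched a response to the cytokine. Of the listed mesenchymal markers, VIM averaged 369946 in IFNg and 380457 in Ctrl, and FN1 was also abundant, whereas COL1A1 and COL1A2 were low (COL1A1 194 in IFNg and 322 in Ctrl). The 9 mesenchymal markers in the table summed to 529818 to 556842 in IFNg libraries and to 571218 to 591439 in Ctrl libraries, lower in every IFNg library. Means were higher in IFNg for COL6A2 (8399 in IFNg and 8021 in Ctrl) and COL1A2 (74.8 in IFNg and 71.6 in Ctrl). The other mesenchymal markers had lower means in IFNg, as SPARC did (48587 in IFNg and 57502 in Ctrl). The SDs of VIM (48203 in IFNg and 44482 in Ctrl) and FN1 (33495 in IFNg and 39318 in Ctrl) exceeded their differences between groups. The part of these markers in the results was not tested. The 6 immune markers in the table summed to 41.3 to 66.9 in IFNg libraries and to 15 to 68.5 in Ctrl libraries, and 4 endothelial markers to 42.9 to 99.2 in IFNg and 66.2 to 97.7 in Ctrl. The 5 epithelial markers in the table summed to 29113.8 to 34126.7 in IFNg libraries and to 23392.5 to 31939.1 in Ctrl libraries. Among them KRT8 averaged 19916 in IFNg and 16193 in Ctrl, and KRT18 11344 in IFNg and 10710 in Ctrl. KRT19 and ESRP1 were near 0. Across all genes the libraries numbered 3 stood apart from numbers 1 and 2, and results are therefore also given without both of them. Those fits keep only numbers 1 and 2 of each group, and the libraries left out were picked from these same values. Their p-values, and those without Ctrl 3 alone, describe how calls depend on the libraries and add no further support.

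The glucose transporter gene SLC2A3, the hexokinase gene HK1, the regulatory kinase gene PFKFB4, the pyruvate dehydrogenase kinase gene PDK1 and the mitophagy receptor gene BNIP3 rose, by 1.36 (HK1) to 1.62 times (SLC2A3). VEGFA, which encodes the main angiogenic growth factor, fell to 0.745 times its Ctrl level. Of the 34 genes that could be tested, 5 were therefore higher and 1 lower at a limma adjusted p of 0.05, while 28 did not pass. Over all 15546 genes tested, 3.27% were called higher, 1.05% lower and 4.32% in either direction. Shares over all tested genes, here and below, are not matched for expression level, and most of the 34 genes were abundant. The log2 difference (IFNg minus Ctrl) was above 0 in 26 of the 34, and in 47.8% of all tested genes. Its median was 0.14 in the 34, against -0.01 over all tested genes. Fewer cells that express a gene and less of its RNA per cell cannot be told apart in such bulk samples.

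These 6 calls were also made by edgeR and DESeq2 on whole reads recovered from the values, with adjusted p up to 0.0243 and 0.00161, where edgeR called 4.69% and DESeq2 6.9% of the genes each tested. None held in a limma fit whose variance model has no trend with expression level (adjusted p of 0.105 to 0.253). Without both libraries numbered 3, limma called 15 of the 34 genes higher and 1 lower, and the 6 genes were among those 16. In that fit 5.67% of all tested genes were called higher, 3.85% lower and 9.53% in either direction. The fit rests on fewer libraries, and those left out stood apart in these same data. Genes called only there are not counted among the 6.

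**Figure D1:**
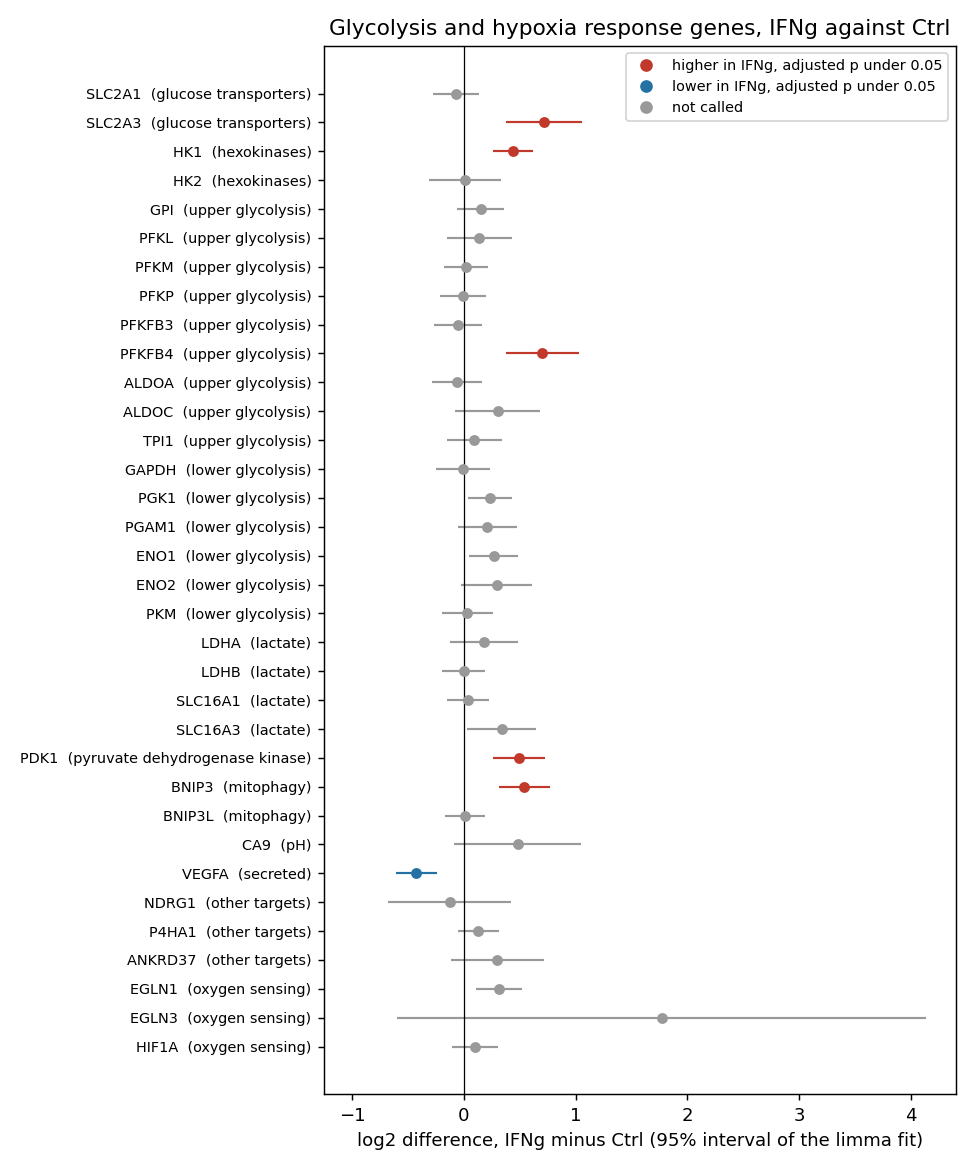
Log2 difference in normalised read count, IFNg minus Ctrl (x axis), for the 34 tested genes (rows, with their role), with 95% intervals of the limma fit over 3 libraries per group. The 5 genes in red were called higher and VEGFA, in blue, lower; most of the grey intervals span 0, and the widest is that of EGLN3 (-0.60 to 4.13).

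Glucose enters cells through facilitative carriers, and 1 of the pair measured here passed the test. SLC2A3, which encodes the high-affinity carrier GLUT3, had 10498, 11087 and 9086 normalised reads in IFNg libraries 1, 2 and 3, against 7370, 6937 and 4645 in Ctrl libraries 1, 2 and 3. All IFNg libraries lay above all Ctrl libraries, and Ctrl 3 was the lowest. The log2 difference was 0.72 ± 0.16 (SE; limma adjusted p = 0.0212), and the call was lost without IFNg 1 (0.104) or IFNg 2 (0.101). SLC2A14, a near-identical copy of SLC2A3, had 1.32 normalised reads on average in IFNg and was at 0 in all Ctrl libraries. SLC2A1, which encodes the widespread basal carrier GLUT1, had 17906, 17487 and 19880 in IFNg, against 17506, 20074 and 20590 in Ctrl. Its groups overlapped, and its difference was -0.07 (95% interval -0.28 to 0.13; limma adjusted p = 0.803). Per kilobase of merged coding-transcript exons (GENCODE release 29), SLC2A3 had 2611 normalised reads in IFNg and 1614 in Ctrl, and SLC2A1 had 4623 in IFNg and 4866 in Ctrl.

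Hexokinases trap glucose as glucose 6-phosphate. HK1, the broadly expressed form, had 33242, 31738 and 30303 in IFNg libraries, against 23713, 24152 and 22350 in Ctrl libraries. The groups were well separated, and libraries of a group lay close together. The difference was 0.44 ± 0.08 on the log2 scale (limma adjusted p = 0.00845), lost without IFNg 1 (0.0760) or IFNg 2 (0.0636). HK2, the inducible form and a known HIF target, had 23454, 23991 and 20014 in IFNg, against 25401, 25794 and 16830 in Ctrl. Both libraries numbered 3 were its lowest, and its log2 difference of 0.01 (95% interval -0.31 to 0.34) had no stable sign, being -0.11 without them. HK1 stood at 6803 normalised reads per kilobase in IFNg and 5013 in Ctrl, and HK2 at 3785 in IFNg and 3817 in Ctrl.

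PFKFB4 was the 1 gene of the upper pathway below the hexokinases that passed. This bifunctional enzyme sets fructose 2,6-bisphosphate, an activator of phosphofructokinase. PFKFB4 had 3340, 3748 and 3841 in IFNg libraries, against 1745, 2470 and 2588 in Ctrl libraries. Every IFNg library exceeded every Ctrl library, with Ctrl 1 the lowest. Its log2 difference was 0.70 ± 0.15 (limma adjusted p = 0.0192), and it missed the threshold without IFNg 1 (0.0543), IFNg 2 (0.0863) or IFNg 3 (0.0821). PFKFB3, the inducible family member usually linked to high glycolytic rate, had 6448, 6430 and 5861 in IFNg, against 6491, 7030 and 5907 in Ctrl, and did not pass (-0.05; 95% interval -0.27 to 0.17).

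The 3 phosphofructokinase genes encode the enzyme of the main committed step. PFKL differed by 0.14, PFKM by 0.02 and PFKP by -0.01 on the log2 scale, with limma adjusted p of 0.710 to 0.976. The upper bounds of their 95% intervals were 0.43 for PFKL, 0.22 for PFKM and 0.19 for PFKP. PFKP had the most normalised reads per kilobase (6555 in IFNg and 6592 in Ctrl), ahead of PFKL (2949 in IFNg and 2720 in Ctrl) and PFKM (1781 in IFNg and 1759 in Ctrl). The signs for PFKL, PFKM and PFKP, as for HK2, turned under some scalings or left-out libraries, PFKL without Ctrl 1 (-0.035).

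GPI, which converts glucose 6-phosphate to fructose 6-phosphate, had 36990, 38100 and 36837 in IFNg, against 30255, 32905 and 38036 in Ctrl. Its groups overlapped through Ctrl 3, and it did not pass over all libraries (0.15, limma adjusted p = 0.517) but did without both libraries numbered 3 (0.25, 0.0356). ALDOA, the main aldolase, differed by -0.06 (95% interval -0.29 to 0.17). ALDOC, another aldolase gene, had 7509, 7210 and 4560 in IFNg, against 5130, 5864 and 4381 in Ctrl. It was lowest in the libraries numbered 3 of both groups and passed only without them (0.30 with limma adjusted p = 0.469, and 0.42 with 0.0109). TPI1, triose phosphate isomerase, differed by 0.09 (95% interval -0.15 to 0.34).

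In lower glycolysis none of 6 genes passed over all libraries. GAPDH, often used as a reference gene, had 399908, 376775 and 357951 in IFNg, against 352882, 384049 and 403741 in Ctrl. The groups overlapped fully, with a log2 difference of -0.01 (95% interval -0.24 to 0.23). ENO1, the main enolase, had 229716, 232741 and 234138 in IFNg, against 178056, 191244 and 210598 in Ctrl. Here the groups did not overlap, but the difference of 0.27 ± 0.10 missed the threshold (limma adjusted p = 0.208), which it passed without Ctrl 3 (0.0422).

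PGK1, which makes the first ATP of the pathway, had 79049, 75584 and 83593 in IFNg, against 63503, 66204 and 72580 in Ctrl. It was likewise higher in every IFNg library and missed the threshold (0.24 ± 0.09, limma adjusted p = 0.221). PGAM1, phosphoglycerate mutase, differed by 0.21 (limma adjusted p = 0.469) and passed without Ctrl 3 (0.0383). ENO2, the neuron-enriched enolase and a HIF target, differed by 0.29 (limma adjusted p = 0.376). PKM, pyruvate kinase, had 203310, 200789 and 201350 in IFNg, against 177167, 198115 and 219876 in Ctrl, a difference of 0.03 (95% interval -0.20 to 0.26). Without both libraries numbered 3, PGK1 (0.25, limma adjusted p = 0.0218), PGAM1 (0.27, 0.0170), ENO1 (0.33, 0.00464) and ENO2 (0.40, 0.0163) were called higher, and GAPDH and PKM were not.

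LDHA reduces pyruvate to lactate, and LDHB encodes the subunit that favours the reverse reaction. LDHA had 139631, 146851 and 180761 in IFNg, against 124777, 121735 and 167019 in Ctrl. Libraries numbered 3 were its highest in both groups, so the groups overlapped, and it did not pass (0.18, limma adjusted p = 0.609), although it did without them (0.22, 0.0441). LDHB averaged 47935 ± 696 in IFNg and 48107 ± 4190 in Ctrl (SD, n = 3 each), with a log2 difference of -0.0016 (95% interval -0.20 to 0.19). Per kilobase, LDHA stood at 52458 in IFNg and 46428 in Ctrl, and LDHB at 30224 in IFNg and 30332 in Ctrl.

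SLC16A3 encodes MCT4, the exporter of lactate in glycolytic cells. It had 21009, 21688 and 21520 in IFNg, against 13943, 15687 and 22212 in Ctrl. Ctrl 3 alone reached the IFNg values, and the difference of 0.34 ± 0.14 did not pass (limma adjusted p = 0.271). Without Ctrl 3 it was 0.53 (limma adjusted p = 0.00150), and without both libraries numbered 3 also 0.53 (0.000546). Leaving out the library that made the groups overlap favours a call, so these p-values add no support for a rise. CSNK1D, which overlaps SLC16A3 on the opposite strand, differed by -0.14. SLC16A1, which encodes the lactate carrier MCT1, differed by 0.04 (95% interval -0.15 to 0.23).

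**Figure D2:**
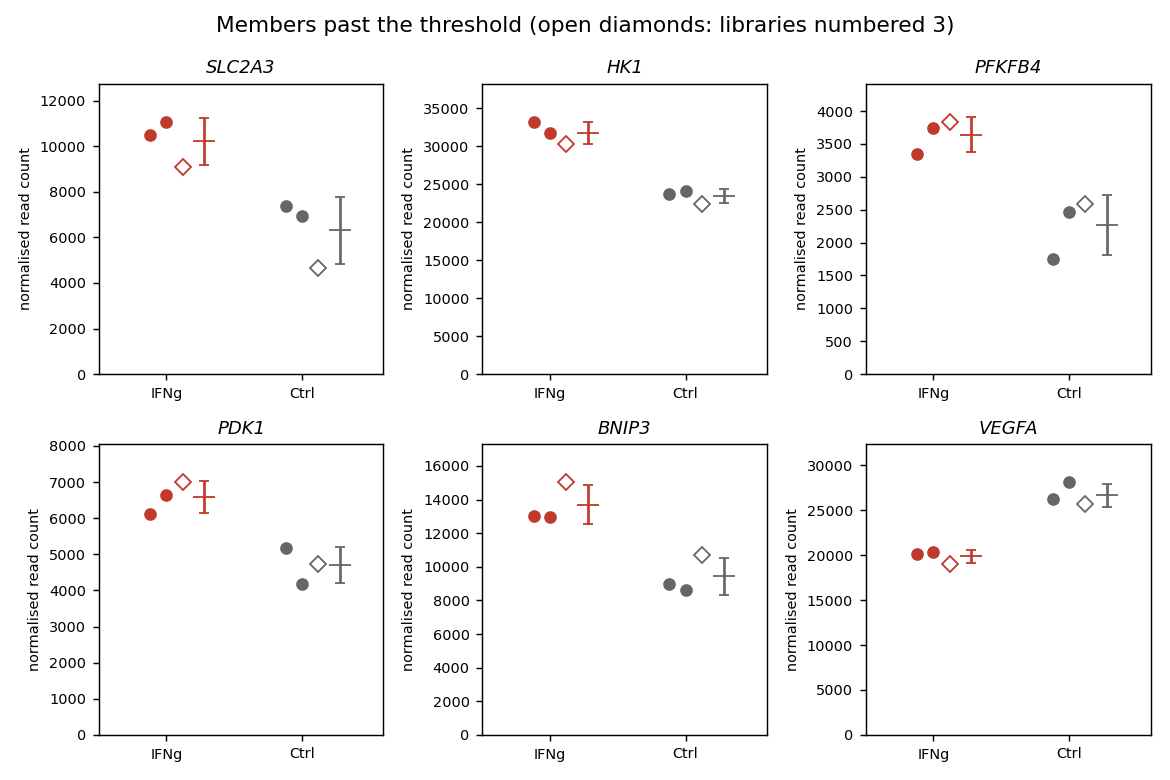
Normalised read count per library (y axes from 0) for the 6 genes past the limma threshold, with IFNg (red) left of Ctrl (grey), the mean and SD of 3 libraries beside the points, and libraries numbered 3 as open diamonds. In each panel the groups do not overlap; SLC2A3 is lowest in Ctrl 3 (4645), and VEGFA is lower in all IFNg libraries.

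Among the hypoxia response genes, 2 rose, 1 fell and 8 of 11 tested did not pass. Thus 27.3% were called, against 4.32% of all tested genes (3.27% higher and 1.05% lower). Of the 23 genes of glycolysis and its carriers, 3 were called higher and 0 lower (13%). PDK1 phosphorylates and inhibits pyruvate dehydrogenase, which limits entry of pyruvate into the tricarboxylic acid cycle. It had 6107, 6645 and 6994 in IFNg libraries, against 5173, 4187 and 4730 in Ctrl libraries. The groups did not overlap, and the difference was 0.49 ± 0.11 on the log2 scale (limma adjusted p = 0.0215). PDK1 lost its call without Ctrl 2 (0.130), IFNg 1 (0.0548), IFNg 2 (0.105) or IFNg 3 (0.0864).

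BNIP3 and BNIP3L encode related receptors on the outer mitochondrial membrane that recruit the autophagy machinery. BNIP3 had 13044, 12982 and 15028 in IFNg, against 9004, 8595 and 10672 in Ctrl. All IFNg libraries were above all Ctrl libraries, with number 3 the highest of each group. The log2 difference was 0.54 ± 0.11 (limma adjusted p = 0.0108), and the call was lost without Ctrl 1 (0.0522), Ctrl 2 (0.0758) or IFNg 3 (0.0514). BNIP3L had 12961, 13015 and 12988 in IFNg, against 13004, 12274 and 13392 in Ctrl, and differed by 0.01 (95% interval -0.17 to 0.19). GENCODE lists 39 pseudogenes named for BNIP3, none with a row in the table, so reads that such copies share with BNIP3 cannot be separated here.

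VEGFA was the 1 gene called lower. It had 20172, 20407 and 18984 in IFNg, against 26216, 28114 and 25645 in Ctrl. Every IFNg library was below every Ctrl library, and the log2 difference was -0.42 ± 0.08 (limma adjusted p = 0.0109). The call was lost without Ctrl 2 (0.0829), IFNg 1 (0.0619) or IFNg 2 (0.0575). ADM, the vasodilator peptide gene and another secreted HIF target, had 0 reads in all IFNg libraries and 2 reads in Ctrl, both in Ctrl 2, and was too low to test.

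CA9 encodes carbonic anhydrase IX, a cell surface enzyme that acidifies the medium. It had 1961, 1921 and 2555 in IFNg, against 1116, 1236 and 2558 in Ctrl. Ctrl 3 was as high as IFNg 3, so the groups overlapped and the difference of 0.48 ± 0.26 did not pass (limma adjusted p = 0.431). It was 0.86 without Ctrl 3 (limma adjusted p = 0.00416) and 0.72 without both libraries numbered 3 (0.00473). Ctrl 3 made the groups overlap, so leaving it out favours a call, and these p-values add no support for a rise. ARHGEF39 overlaps CA9 on the opposite strand, averaged 1043 in IFNg and 1052 in Ctrl, and was highest in the libraries numbered 3 (1204 in IFNg and 1291 in Ctrl). Whether counting used the strand is not given in the sources used here.

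NDRG1, a stress-responsive gene induced by low oxygen, varied widely within both groups. It had 46179, 47410 and 24694 in IFNg, against 48587, 51030 and 28412 in Ctrl. Libraries numbered 3 were the low ones in both groups, and the difference was -0.13 (95% interval -0.68 to 0.42), or -0.09 without them. P4HA1, a collagen prolyl hydroxylase subunit gene, was higher in every IFNg library but missed the threshold (0.13 ± 0.08, limma adjusted p = 0.520). ANKRD37, a small ankyrin repeat gene induced by HIF, averaged 633 ± 65.4 in IFNg and 514 ± 52.6 in Ctrl (0.30, limma adjusted p = 0.516).

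The oxygen sensing machinery gave no call. HIF1A had 40882, 41613 and 43640 in IFNg, against 43788, 39192 and 35170 in Ctrl. Its groups overlapped, with a log2 difference of 0.10 (95% interval -0.11 to 0.31; limma adjusted p = 0.703) that was -0.0063 without both libraries numbered 3. EGLN1, the main prolyl hydroxylase, had 7989, 8545 and 8288 in IFNg, against 6725, 6077 and 7180 in Ctrl. It was higher in every IFNg library, missed the threshold (0.32 ± 0.09, limma adjusted p = 0.0955) and passed without Ctrl 3 (0.0276) or both libraries numbered 3 (0.37, 0.0180). EGLN3, an inducible hydroxylase gene, was near the limit of detection, with 25.1, 19.6 and 20.9 in IFNg, against 12.9, 0 and 20.4 in Ctrl.

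**Figure D3:**
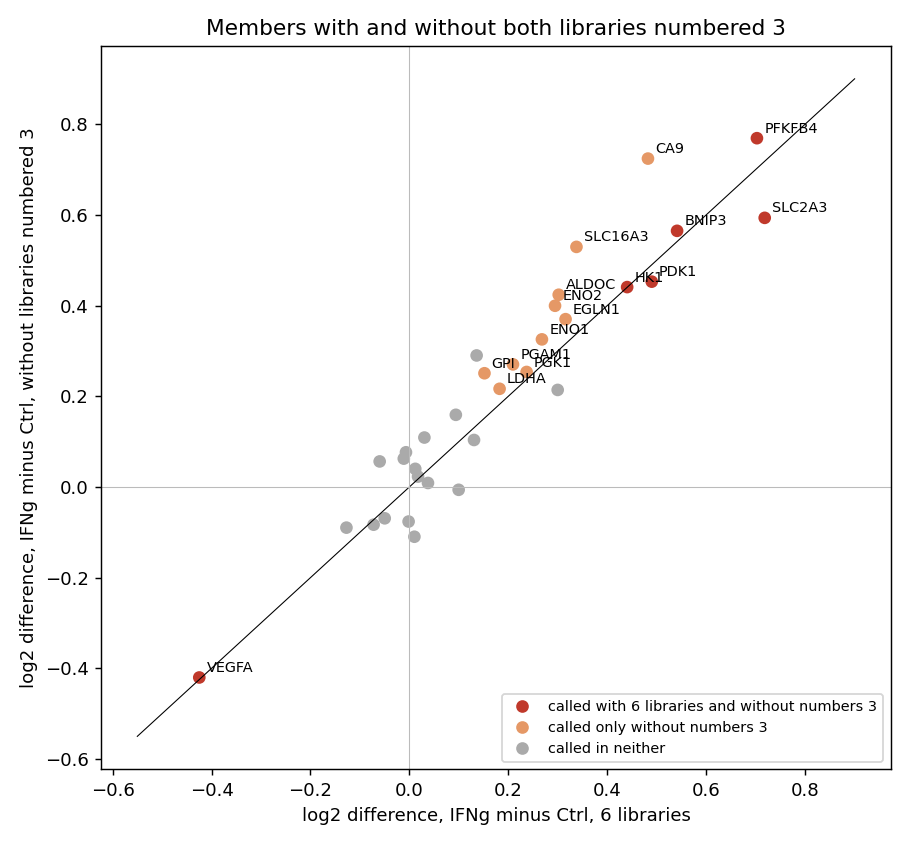
Log2 difference, IFNg minus Ctrl, over all 6 libraries (x axis) against the difference without both libraries numbered 3 (y axis) for 33 genes (EGLN3 is left out of the plot); the line marks equal values. The 6 genes called in both fits are red and the 10 called only without libraries numbered 3 are orange, with CA9 (0.48 and 0.72) and SLC16A3 (0.34 and 0.53) farthest above the line among these.

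Several of these genes varied more between libraries numbered 3 and the others than between IFNg and Ctrl. In 10 of the 34 genes (29.4%) both libraries numbered 3 lay on the same side of the other 4, against 21.9% of all tested genes. TPI1, PGAM1, LDHA, SLC16A1 and CA9 were highest there, and HK2, PFKM, PFKFB3, ALDOC and NDRG1 lowest. Glycolytic genes were thus found on both sides. NDRG1 averaged 26553 in the libraries numbered 3 and 48301 in the other 4. CA9 averaged 2557 in the libraries numbered 3 and 1559 in the other 4, and LDHA averaged 173890 there and 133249 in the other 4. Whether such libraries share a day, a culture or a density is not given in the labels, and the part of any such factor in these values was not tested.

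**Figure D4:**
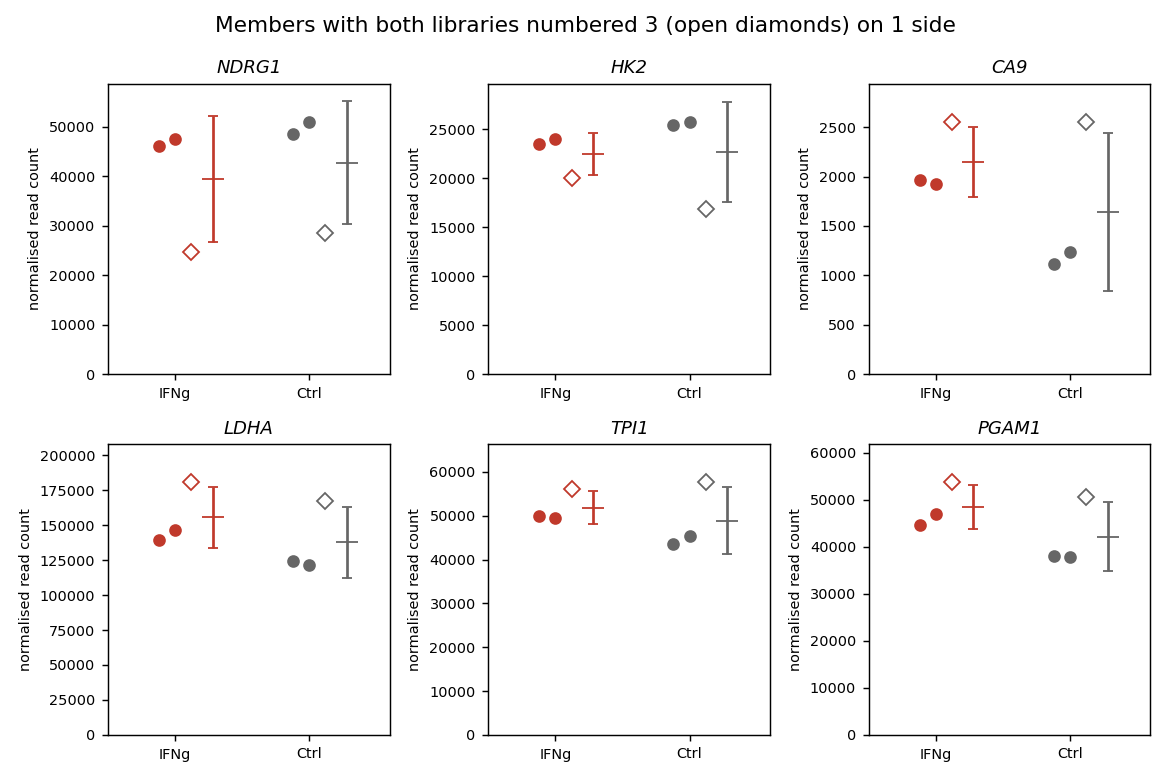
Normalised read count per library (y axes from 0) for 6 genes in which both libraries numbered 3 (open diamonds) lie on 1 side of the other 4, with IFNg (red) left of Ctrl (grey) and the mean and SD of 3 libraries beside the points. NDRG1 and HK2 are lowest and CA9, LDHA, TPI1 and PGAM1 highest in these libraries of both groups.

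Groups that did not overlap were seen in 10 of the 34 genes (29.4%), 9 with IFNg above Ctrl and 1 below, against 20% of all tested genes (10.7% above and 9.28% below). Besides the 6 called genes these were PGK1, ENO1, P4HA1 and EGLN1. The 23 genes of glycolysis and its carriers together held 2.202%, 2.162% and 2.202% of assigned reads in IFNg libraries 1, 2 and 3, against 1.868%, 2.017% and 2.251% in Ctrl libraries 1, 2 and 3. Ctrl 3 had the highest share of all, and the groups overlapped.

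Ratios of related genes within a library do not depend on how libraries were scaled to each other, and 11 pairs were compared. The log2 ratio of SLC2A1 to SLC2A3 was 0.85 ± 0.25 in IFNg and 1.64 ± 0.46 in Ctrl (SD, n = 3 each), a shift of -0.79. For PFKFB3 to PFKFB4 it was 0.78 ± 0.17 in IFNg and 1.53 ± 0.35 in Ctrl, and for BNIP3 to BNIP3L 0.07 ± 0.12 in IFNg and -0.46 ± 0.11 in Ctrl. Groups did not overlap in these 3 pairs. Each had an exact permutation p of 0.1, the smallest that 3 against 3 allows, and an adjusted p of 0.367 over the 11 pairs. Each pair holds a called gene (SLC2A3, PFKFB4 or BNIP3), so its ratio is no evidence separate from that call. The ratio of HK1 to HK2 shifted by 0.43 and that of SLC16A1 to SLC16A3 by -0.30 (exact p = 0.2 each), with overlap through Ctrl 3. LDHA to LDHB shifted by 0.18 (exact p = 0.5), PFKM to PFKP by 0.03 (exact p = 0.8) and ENO1 to ENO2 by -0.03 (exact p = 1). PFKL to PFKP shifted by 0.15, ALDOA to ALDOC by -0.36 and EGLN1 to EGLN3 by -1.45 (exact p from 0.3 to 0.5), the last set by the low counts of EGLN3.

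**Figure D5:**
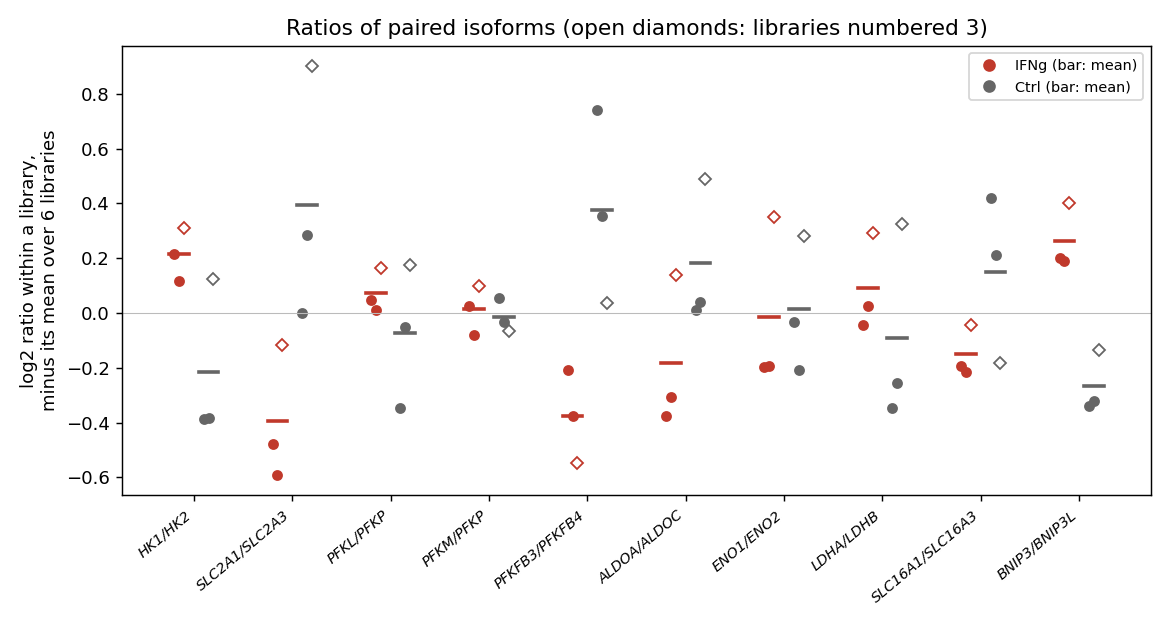
Log2 ratio of related genes within each library, minus the mean of the 6 libraries (y axis), for 10 pairs (x axis; EGLN1/EGLN3 is left out of the plot), with IFNg (red) left of Ctrl (grey), bars at group means and libraries numbered 3 as open diamonds. The groups are apart for SLC2A1/SLC2A3, PFKFB3/PFKFB4 and BNIP3/BNIP3L and overlap for the others.

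Lists of neighbouring pathways were read against the 4.32% of all tested genes that were called. Of 51 tested genes on a list of other hypoxia targets, 2 rose and 2 fell (7.84% called, median log2 difference 0.07). INSIG2, which retains sterol-regulatory factors in the endoplasmic reticulum, had 2255, 2281 and 2423 in IFNg, against 1464, 1412 and 1447 in Ctrl (0.69 ± 0.12, limma adjusted p = 0.00413). AK4, a mitochondrial adenylate kinase gene, had 7680, 7063 and 9399 in IFNg, against 4982, 4751 and 6344 in Ctrl (0.59 ± 0.13, limma adjusted p = 0.0281). The AK4 call was lost without Ctrl 1 (0.128), Ctrl 2 (0.158), IFNg 1 (0.0935) or IFNg 3 (0.114). STC2, which encodes a secreted glycoprotein, fell by 0.70 and HMOX1, heme oxygenase, by 1.05 on the log2 scale, both also targets of other stress factors (limma adjusted p = 0.00129 and 0.00321). Without both libraries numbered 3, 6 of these 51 genes were called higher and 6 lower. In that fit 5.67% of all tested genes were called higher and 3.85% lower.

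Enzymes at the mitochondrial entry of pyruvate moved singly. Of 13 tested, PDP1 rose and PC fell (15.4% called). PDP1, the phosphatase that reactivates pyruvate dehydrogenase and so opposes PDK1, had 10594, 10525 and 11479 in IFNg, against 7574, 7632 and 5651 in Ctrl. Its difference was 0.66 ± 0.12 (limma adjusted p = 0.00674), and it kept its call without each library in turn (adjusted p up to 0.0378). PC, pyruvate carboxylase, had 1500.5, 1391 and 1388 in IFNg, against 1986, 2105 and 2172 in Ctrl (-0.55 ± 0.12, limma adjusted p = 0.0228), a call lost without Ctrl 2 (0.112), IFNg 1 (0.0697), IFNg 2 (0.107) or IFNg 3 (0.0662). The antagonists PDK1 and PDP1 were thus both higher in IFNg.

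Of 22 tested genes of the tricarboxylic acid cycle and its branches, 1 was past the threshold (4.55%). It was IRG1, now named ACOD1, which makes itaconate from an intermediate of the cycle in activated macrophages. IRG1 had 6, 55 and 47 reads in IFNg libraries 1, 2 and 3, against 0 in all Ctrl libraries, and was at least 40.6-fold higher, set against a floor of 3 reads over the Ctrl group. IRG1 passed the filter on low values only through the IFNg libraries, where it is high, so its call is no independent evidence of a difference, and its reads are given as a description. Among 20 genes of glycogen metabolism 0 rose and 1 fell (5% called), the brain-type phosphorylase gene PYGB. It had 25416, 24496 and 17512 in IFNg, against 34410, 37990 and 29838 in Ctrl (-0.61 ± 0.14, limma adjusted p = 0.0275), and lost its call without Ctrl 1 (0.113), Ctrl 2 (0.158) or IFNg 3 (0.0702).

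No call was made on 12 other glycolytic isoforms, 10 other glucose and lactate carriers, 8 pentose phosphate genes or 15 further genes of HIF control. ADPGK, an ADP-dependent glucokinase gene, differed by 0.11 and PGM2, a phosphopentomutase gene, by -0.07. BSG, the chaperone that brings MCT1 and MCT4 to the membrane, differed by -0.10 and EMB, its relative, by -0.07. TKT, transketolase, differed by -0.21 and PGD, 6-phosphogluconate dehydrogenase, by 0.21, neither past the limma threshold. EPAS1, which encodes HIF2A, averaged 12531 ± 2910 in IFNg and 14238 ± 3340 in Ctrl and was low in both libraries numbered 3 (9189 in IFNg and 10387 in Ctrl). The coactivator gene EP300 differed by -0.22 ± 0.08 (limma adjusted p = 0.208) and was called lower without both libraries numbered 3 (-0.27, 0.0340).

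Several members have close copies elsewhere in the genome. GENCODE release 29 names 62 pseudogenes after GAPDH, 13 after PGAM1, 6 after LDHA and 5 after PKM. Few have a row in the table, and how the authors' counting treated reads that fit several places is not given, so levels of GAPDH, PGAM1, LDHA and BNIP3 are uncertain to that extent. TPI1P2, a TPI1 copy with its own row, averaged 124 in IFNg and 56.4 in Ctrl, small beside 51852 in IFNg and 48881 in Ctrl for TPI1 itself. PGAM4, a copy of PGAM1 that lies within PGK1 on the opposite strand, averaged 181 in IFNg and 173 in Ctrl.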

How the data were processed

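Transcripts were measured by RNA sequencing in 6 HT-1080 libraries. Per the submitters' processing notes, TopHat2 2.0.13, Cuffdiff 2.2.1, Cufflinks and FastQC 0.11.3 were used, and GRCh37 and hg19 are the builds listed. Which program counted reads, whether it used strand and how it scaled them is not given in the sources used here. Named RPKM, the deposited signal held 1 step per library: in each library 100% of positive values were whole multiples of 1 step (tolerance 0.001 reads). It is therefore a normalised read count, whole reads divided by 1 size factor (0.863 to 1.20), and these factors matched median-of-ratios factors recomputed from the reads.

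The 15546 genes that reached a value of 0.5 in 3 or more libraries were tested with limma 3.58.1 (R 4.3.3) on log2(value + 1), with a variance trend, group as the only term, 2-sided, and Benjamini-Hochberg adjustment over all tested genes at 0.05. The pseudocount shrinks log2 differences of low genes, but a limma value can still be too large where a library has no read. For EGLN3, without a read in Ctrl 2, it was 1.77, against 0.98 in both edgeR and DESeq2. edgeR 4.0.16 (quasi-likelihood, TMM) and DESeq2 1.42.0 on recovered reads, other pseudocounts, filters, scalings and left-out libraries were alternatives. The limma and edgeR fits were tested on simulated data. Counts were drawn independently for each library with the gene-wise dispersions of these data, and the changed genes were drawn at random above a low read floor. The simulation held no pattern shared by libraries numbered 3 and no match to the levels of the members, so its rates need not hold for them. There limma recovered 25.4% of 1.5-fold, 64.2% of 2-fold and 87.9% of 4-fold changes, with 5 false calls among 123. edgeR recovered 28.4% of 1.5-fold changes, with 4 false calls among 129. A gene that did not pass may still differ. Pair ratios had exact 2-sided permutation tests (scipy 1.17.1). Fits without libraries kept the same genes. Floors cover counting error only. The members and lists were chosen with earlier results of these data known. All members are described. From other lists, up to 4 called genes per direction were named, or else the 2 most abundant. Of the genes that checked the response to IFNg, 1 is not reported here.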

Additional observations from a re-analysis of the deposited data

How the results depend on the processing

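All 6 calls among the 34 tested genes kept their side of the threshold with a pseudocount of 0.5 or 5, no filter, a filter at 10, TMM or upper-quartile scaling, edgeR and DESeq2. Without a variance trend, 0 members (0 higher, 0 lower) and 320 of all genes were called (279 higher, 41 lower). The cause was not tested. DESeq2 called 1048 genes, 339 of them lower. Without both libraries numbered 3, 16 members (15 higher) and 1481 genes (882 higher, 599 lower) were called, and with a term for these libraries 14 members (13 higher) and 1539 genes (966 higher, 573 lower). When single libraries were left out, 1 to 11 members (1 to 10 higher, 0 to 1 lower) and 386 to 1302 genes (330 to 847 higher, 37 to 455 lower) were called, the most without Ctrl 3.

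Deviations from group means of libraries with the same number correlated at 0.0437, 0.0209 and 0.111 for numbers 1, 2 and 3. IFNg 1 and IFNg 3 correlated best with the Ctrl library of their own number, but IFNg 2 with Ctrl 1 (0.0289). The numbers were not taken as pairs in the main fit. With the replicate number as a block, limma called 12 members (11 higher) and 1464 genes (915 higher, 549 lower). The edgeR fit with the replicate block called 12 members (11 higher) and 1421 genes (890 higher, 531 lower).

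Differences near 0 changed sign in some fits, none of them called. HK2 was -0.012 in edgeR, -0.012 in DESeq2, -0.0088 with upper-quartile scaling and -0.11 without both libraries numbered 3. In the last fit PFKP was 0.062, ALDOA 0.056, GAPDH 0.076 and HIF1A -0.0063. With upper-quartile scaling PFKM was -0.0015 and BNIP3L -0.0071, and with TMM scaling LDHB was 0.0016. Over fits that left out 1 library, log2 differences ran from -0.19 to 0.12 for HK2, -0.035 to 0.25 for PFKL, -0.033 to 0.057 for PFKM, -0.057 to 0.070 for PFKP, -0.11 to 0.011 for PFKFB3, -0.14 to 0.0100 for ALDOA, -0.060 to 0.037 for GAPDH, -0.048 to 0.11 for PKM, -0.064 to 0.061 for LDHB, -0.020 to 0.072 for SLC16A1, -0.023 to 0.040 for BNIP3L and -0.40 to 0.18 for NDRG1. No pair ratio moved by more than the larger SD between libraries under any alternative run for it. Depth limits only ADM and EGLN3 among the members, with at most 27 reads in a library.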
